A study of Mus musculus with 7 samples.

Results

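Microglia and macrophage genes were followed in mouse Group 3 (G3) medulloblastomas (MBs), with and without enforced expression of human WDR11. The list holds 40 genes, chosen by name for their known expression in microglia, the resident macrophages of the brain, or in other macrophages and monocytes. All 40 were among the 34592 genes of the deposited counts, and all 40 were among the 17389 genes with enough reads for the test. RNA sequencing was done on 7 tumors, 3 controls and 4 with enforced WDR11 expression (WDR11OE). All of them came from 1 tumorsphere line, which arose from granule neuron progenitors of Trp53-/-; Cdkn2c-/- mice that were transduced with a Myc retrovirus. The marker of that retrovirus was GFP in the study's methods and RFP in a figure legend of the study. Per the study's methods, the WDR11OE cells received a lentivirus with an EF1 promoter, human WDR11 and copGFP, and the control cells received the empty vector, whereas the labels give the controls no treatment. Unsorted cells were implanted in the cerebral cortex of CD1 nu/nu hosts, an outbred athymic stock that lacks mature T cells but keeps its macrophages, and per the labels' protocols RNA was extracted from pieces of tumor taken when the mice were moribund, although the labels name the sample source by the tumorsphere line. The labels give no age for the host mice. Because the tumor line is of neural origin, transcripts of myeloid cells in these pieces would come from the host. Some listed genes are also made by other cells, and bulk RNA does not show whether host or tumor cells made their transcripts. In such bulk RNA, fewer myeloid cells and less RNA per myeloid cell cannot be told apart either.

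Microglia and macrophages depend on CSF1R, the receptor for CSF1 and IL-34, and on a set of lineage transcription factors that includes PU.1 and IRF8. Homeostatic microglia carry surface receptors such as P2RY12 and TMEM119, signal through the adaptor DAP12 (Tyrobp), make the C1q complement chains and hold lysosomal enzymes. Activated and recruited macrophages can also display peptides on MHC class II molecules, which pair an alpha chain with a beta chain and are assembled with the invariant chain CD74.

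Total counts per tumor lay between 32116095 and 87141305, and levels are given as counts per 1000000 counted reads (CPM) after TMM scaling. The lowest count of any listed gene in any tumor was 5. Mouse Wdr11 lay between 58.3 and 59.3 CPM in the controls and between 61.0 and 68.9 CPM in WDR11OE tumors (log2 fold change 0.16, edgeR adjusted p = 0.0910), which does not check the human transgene. The titles of WDR11OE replicates 1 and 2 share a number, and the control and WDR11OE libraries carry separate number series, so that library series and condition cannot be told apart. Replicate numbers are names in order of deposit.

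Most of the list did not pass the test between the conditions. In edgeR's quasi-likelihood test, with p adjusted over all 17389 genes and a call at an adjusted p under 0.05, 2 of the 40 genes were higher in WDR11OE tumors, H2-Aa and Ccr2, against 18.1% of all genes tested. None was lower, against 15.8% of all genes tested, and in either direction 33.9% of all genes were called. At an unadjusted p under 0.05, 3 were higher and 1 was lower. DESeq2 called 1 of the 40 lower, beside 3361 of all 17389 genes. The same 2 genes were the ones called at least 2-fold higher, against 3.53% of all genes called at least 2-fold higher and 3.95% called at least 2-fold lower, and the ones in which all WDR11OE tumors lay above all controls, against 23.5% of all genes. In no listed gene did all WDR11OE tumors lie below all controls, against 19.1% of all genes. The median log2 fold change over the list was 0.12, beside 0.08 over all genes tested, with 22 genes above 0 and 18 below.

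These genes varied strongly between tumors of the same condition. The median within-group SD of log2 CPM was 0.69 over the list and 0.22 over all genes tested, and each of the 40 genes was above the latter. Between the highest and the lowest control the level differed at least 2-fold in 28 genes and at least 4-fold in 12, from 1.06-fold for Ccr2 to 11.6-fold for Gpnmb. In WDR11OE tumors the highest level was at least 2-fold the lowest in 20 genes. The 95% intervals of the log2 fold change lay inside -1 to 1 for 7 genes only, and for 4 genes they excluded 0, so a 2-fold difference was within the interval for most of the list.

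**Figure D1:**
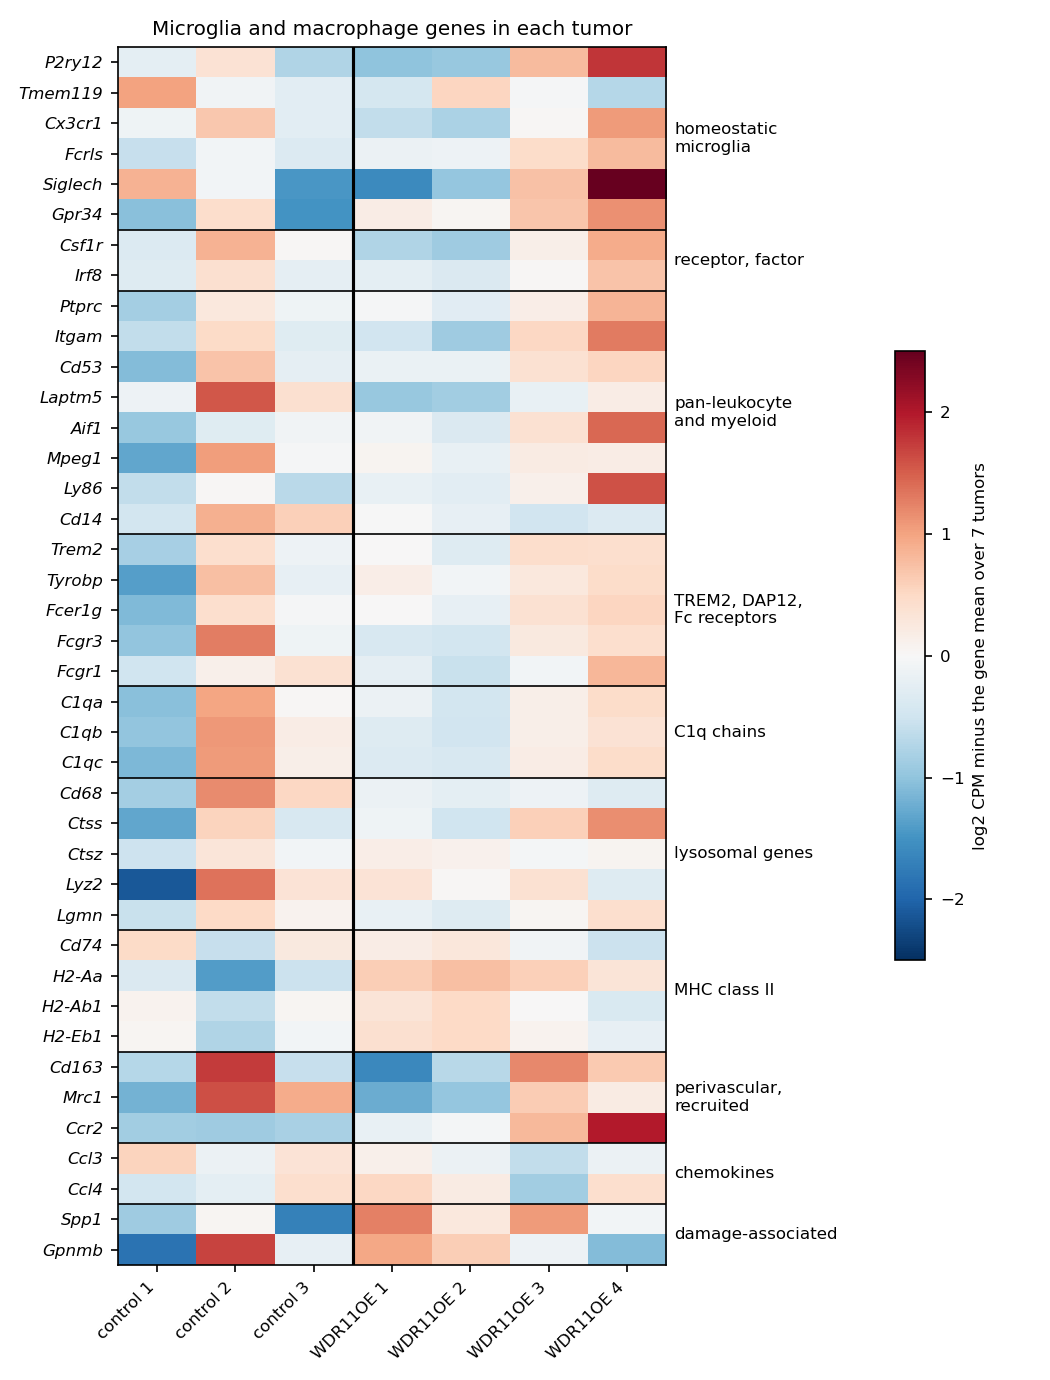
Each row is 1 of the 40 genes, ordered by role, and each column is 1 tumor. Color gives log2 CPM minus the mean of that gene over the 7 tumors. Control replicate 2 and WDR11OE replicate 4 are red for much of the list. The MHC class II rows are blue in control replicate 2 and, apart from H2-Aa, in WDR11OE replicate 4.

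The variation was shared by many of the genes. Of the 36 genes outside MHC class II, 29 were highest among the controls in replicate 2, 27 were lowest in replicate 1, and 24 showed both. Among the WDR11OE tumors, replicate 4 was the highest for 23 of the 36, and replicate 1 or 2 was the lowest for 27. The summed level of these 36 genes was 425, 1200 and 672 CPM in control replicates 1, 2 and 3. In WDR11OE replicates 1 to 4 it was 750, 630, 854 and 897 CPM, all within the range of the controls. Control replicate 1, the lowest for most of the genes, also held the most red blood cell transcripts, 1123 summed CPM over 5 genes beside 23.6 to 378 in the other tumors, and their part in its myeloid levels was not tested.

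**Figure D2:**
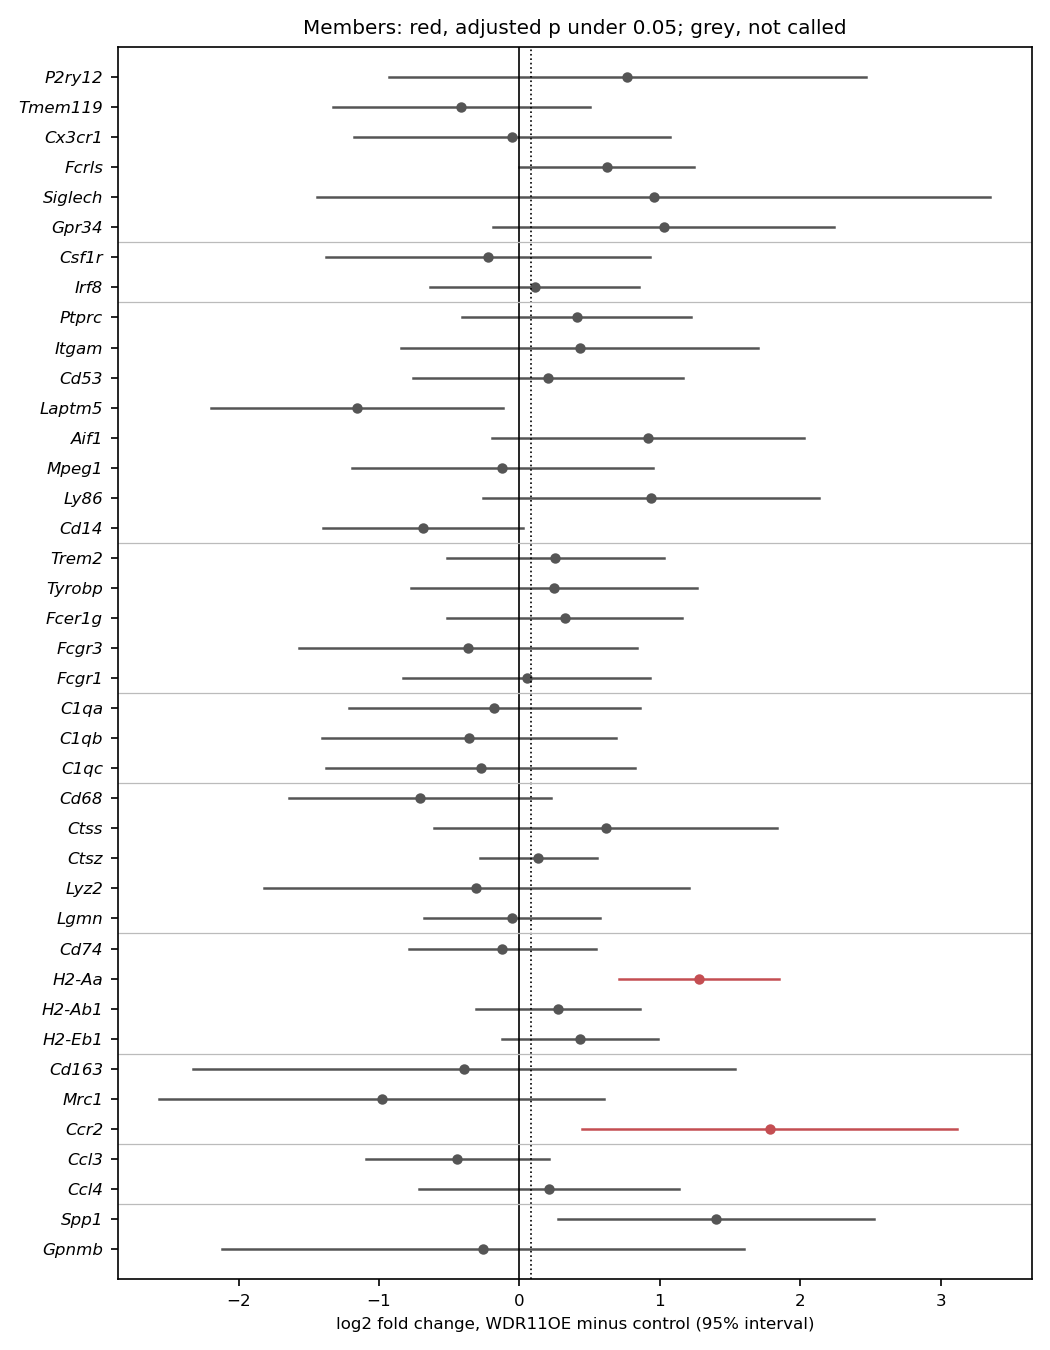
Points give the log2 fold change of each gene, WDR11OE minus control, and bars its 95% interval, with a dotted line at the median of all genes tested, 0.08. H2-Aa and Ccr2, in red, passed an adjusted p of 0.05, and the bars of most other genes cross 0.

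The homeostatic microglia genes (P2ry12, Tmem119, Cx3cr1, Fcrls, Siglech and Gpr34) held no call. P2ry12, an ADP receptor that marks resting microglia, was at 2.03, 3.12 and 1.44 CPM in the controls and at 1.21, 1.26, 4.19 and 8.32 CPM in WDR11OE replicates 1 to 4. The WDR11OE tumors thus enclosed the controls, 2 below them and 2 above, and the log2 fold change of 0.77 had a 95% interval from -0.93 to 2.47 (edgeR adjusted p = 0.464). Tmem119, a surface protein of microglia that other cells such as osteoblasts also make, was at 69.3, 32.7 and 28.8 CPM in the controls and at 25.5, 50.0, 34.1 and 21.1 CPM in WDR11OE tumors. It was highest in control replicate 1, where most of the list was lowest, and its groups overlapped (log2 fold change -0.42, edgeR adjusted p = 0.462).

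Fcrls, an Fc receptor-like gene of mouse microglia, had the smallest p of the group. Its level was 10.1, 14.4 and 11.9 CPM in the controls and 13.7, 13.9, 20.8 and 26.3 CPM in WDR11OE tumors. Only control replicate 2 reached into the WDR11OE range, and the test was not passed (log2 fold change 0.62 ± 0.27 (SE), edgeR adjusted p = 0.116). Siglech, a sialic acid-binding lectin of microglia and plasmacytoid dendritic cells, spanned 16.8-fold within the WDR11OE tumors, from 0.308 CPM in replicate 1 to 5.18 CPM in replicate 4. Siglech and P2ry12 were highest in WDR11OE replicate 4, the WDR11OE tumor that also held the most neuronal transcripts. They were among the 23 of 36 genes outside MHC class II for which that tumor was the highest of its group. Among the controls, Siglech was highest in replicate 1 and P2ry12 in replicate 2. The summed level of 7 neuron genes was 436, 129 and 67.1 CPM in the controls and 12.3, 27.8, 192 and 636 CPM in WDR11OE replicates 1 to 4. The part of included brain tissue in Siglech and P2ry12 was not tested. Gpr34, a microglial lysophospholipid receptor, had a log2 fold change of 1.03 (95% interval -0.18 to 2.24, edgeR adjusted p = 0.173). It was called without control replicate 2, at a log2 fold change of 1.83 and an adjusted p of 0.0247.

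Csf1r, on which the survival of macrophages and microglia depends, was at 22.2, 51.2 and 28.6 CPM in the controls. In WDR11OE replicates 1 to 4 it was at 16.6, 15.2, 31.0 and 53.6 CPM. The first 2 of these lay below every control and the last lay above every control, and the mean was 34.0 ± 15.2 (SD, n = 3) in the controls and 29.1 ± 17.8 (SD, n = 4) in WDR11OE tumors. This corresponds to a log2 fold change of -0.22 with a 95% interval from -1.38 to 0.93 (edgeR adjusted p = 0.767). Csf1r shares 871 exon bases with Hmgxb3 on the other strand, and reads there could not be assigned without the strand setting of the counting. Irf8, a transcription factor of the lineage, had a log2 fold change of 0.11 (95% interval -0.64 to 0.85) and was not called.

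Of the 8 pan-leukocyte and myeloid surface genes none was called. Ptprc, which encodes the leukocyte phosphatase CD45, was at 5.59, 12.1 and 9.32 CPM in the controls and at 9.92, 8.28, 11.4 and 18.2 CPM in WDR11OE tumors (log2 fold change 0.41, 95% interval -0.41 to 1.22, edgeR adjusted p = 0.416). Mpeg1, a pore-forming protein of macrophages and the gene of this group with the highest level per length, was at 18.3, 92.3 and 43.8 CPM in the controls and at 47.0, 39.7, 51.5 and 51.3 CPM in WDR11OE tumors. The 4 WDR11OE tumors were close to each other and fell between the controls (log2 fold change -0.12, edgeR adjusted p = 0.868). Cd53, Aif1, Itgam, Ly86 and Cd14 had log2 fold changes between -0.69 for Cd14 and 0.94 for Ly86.

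Laptm5, a lysosomal membrane protein of leukocytes, was the gene of the list with the most negative log2 fold change. It was at 11.1, 35.2 and 15.9 CPM in the controls and at 6.25, 6.62, 10.6 and 13.7 CPM in WDR11OE tumors. Only WDR11OE replicate 4 exceeded a control. The log2 fold change was -1.16 ± 0.44 (SE) and missed the threshold (edgeR adjusted p = 0.0842). Leaving out control replicate 1 or WDR11OE replicate 4 brought it past the threshold (adjusted p 0.0460 and 0.0472), DESeq2 called it (adjusted p = 0.0162), and leaving out control replicate 2 moved the log2 fold change to -0.54 (adjusted p = 0.338). Relative to Csf1r in the same tumor the groups did not overlap, with ratios of Laptm5 to Csf1r CPM of 0.498, 0.688 and 0.557 in the controls and 0.377, 0.435, 0.343 and 0.255 in WDR11OE tumors, a ratio singled out after its values were seen. Without control replicate 1, Cd14, an endotoxin co-receptor, and Cd68, a lysosomal glycoprotein, were called lower as well (edgeR adjusted p = 0.0110 and 0.0105). In that fit 3 of the 40 listed genes were lower, beside 2474 of all 17768 genes tested.

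The 5 genes of TREM2, DAP12 and the Fc receptors, a lipid and antibody sensing group whose receptors signal through paired adaptors, held no call. Tyrobp, which encodes DAP12, was at 4.25, 18.5 and 9.50 CPM in the controls and at 12.3, 10.5, 13.2 and 15.0 CPM in WDR11OE tumors (log2 fold change 0.25, edgeR adjusted p = 0.707). Fcer1g, the Fc receptor gamma chain, was at 3.50, 9.94 and 7.29 CPM in the controls and at 7.51, 6.50, 9.77 and 10.8 CPM in WDR11OE tumors (log2 fold change 0.32, edgeR adjusted p = 0.537). In both genes control replicate 1 was the lowest tumor of all. Trem2, Fcgr3 and Fcgr1 had log2 fold changes of 0.26, -0.37 and 0.05.

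The 3 chains of C1q, the recognition molecule of the classical complement pathway, varied little in proportion to each other while their level changed severalfold between tumors. C1qa was at 17.9, 73.2 and 37.5 CPM in the controls and at 33.3, 26.6, 40.8 and 50.8 CPM in WDR11OE tumors. C1qb was at 11.95, 50.4 and 27.2 CPM in the controls and at 19.1, 17.02, 26.4 and 30.7 CPM in WDR11OE tumors. All 4 WDR11OE tumors fell within the range of the controls. The ratio of C1qb to C1qa was 0.669, 0.688 and 0.725 in the controls and 0.574, 0.641, 0.647 and 0.603 in WDR11OE tumors, each below every control. The gap was narrow, from 0.647 to 0.669, and the share of other gene ratios that keep the groups apart was not computed. The ratio of C1qc to C1qa lay between 0.670 and 0.845, with overlapping groups. The log2 fold changes were -0.18 for C1qa, -0.36 for C1qb and -0.28 for C1qc (edgeR adjusted p = 0.793, 0.585 and 0.693).

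C1qb and C1qc, neighbors on one strand of chromosome 4 at chr4:136436044-136442102 and chr4:136445719-136448980 of NCBIM37, are shown by their promoters because their levels moved together. The sequences are from RefSeq on GRCm38.p6, the minus strand of chr4:136886151-136886450 and of chr4:136892865-136893164, and run from 250 bases before the start to 50 bases after it. Capitals mark GAGGAA, a core of sites for PU.1, on either strand, which reads TTCCTC where it lies on the other strand.
C1qb: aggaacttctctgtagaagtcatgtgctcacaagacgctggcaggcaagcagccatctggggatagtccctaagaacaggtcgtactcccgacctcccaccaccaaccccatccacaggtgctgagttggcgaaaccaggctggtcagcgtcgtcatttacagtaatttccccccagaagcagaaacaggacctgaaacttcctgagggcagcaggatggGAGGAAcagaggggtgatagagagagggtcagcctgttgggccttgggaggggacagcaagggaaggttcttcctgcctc
C1qc: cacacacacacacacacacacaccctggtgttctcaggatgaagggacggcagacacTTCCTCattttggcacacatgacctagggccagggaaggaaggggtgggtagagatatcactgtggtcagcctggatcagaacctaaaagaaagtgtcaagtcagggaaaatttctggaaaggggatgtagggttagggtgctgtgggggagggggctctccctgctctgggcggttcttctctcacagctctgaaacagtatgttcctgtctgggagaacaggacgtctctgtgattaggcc

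The GAGGAA core was in the promoter of 17 of the 31 listed genes that the promoter table holds (54.8%) and of 31.3% of all 27025 genes in it. The longer GAGGAAGT, which contains the core, was in 4 of the 31 (12.9%), Cd53, C1qc, Ctss and Spp1, and in 3.69% of all genes. Both strands were searched. A match of these letters is a description of the sequence and does not show a bound site.

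The lysosomal genes held no call either. Lyz2, the macrophage lysozyme, was at 18.3, 204 and 101 CPM in the controls, an 11.2-fold spread. In WDR11OE tumors it was at 100, 81.0, 104 and 63.5 CPM, within the range of the controls (log2 fold change -0.31, 95% interval -1.82 to 1.21, edgeR adjusted p = 0.755). Its reads may be shared with the close paralog Lyz1. Cd68 was at 5.92, 23.9 and 15.1 CPM in the controls and at 9.54, 8.93, 9.71 and 8.50 CPM in WDR11OE tumors, where it varied 1.14-fold (log2 fold change -0.71, edgeR adjusted p = 0.217). The proteases Ctss, Ctsz and Lgmn (cathepsin S, cathepsin Z and legumain) had log2 fold changes of 0.61, 0.14 and -0.06.

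**Figure D3:**
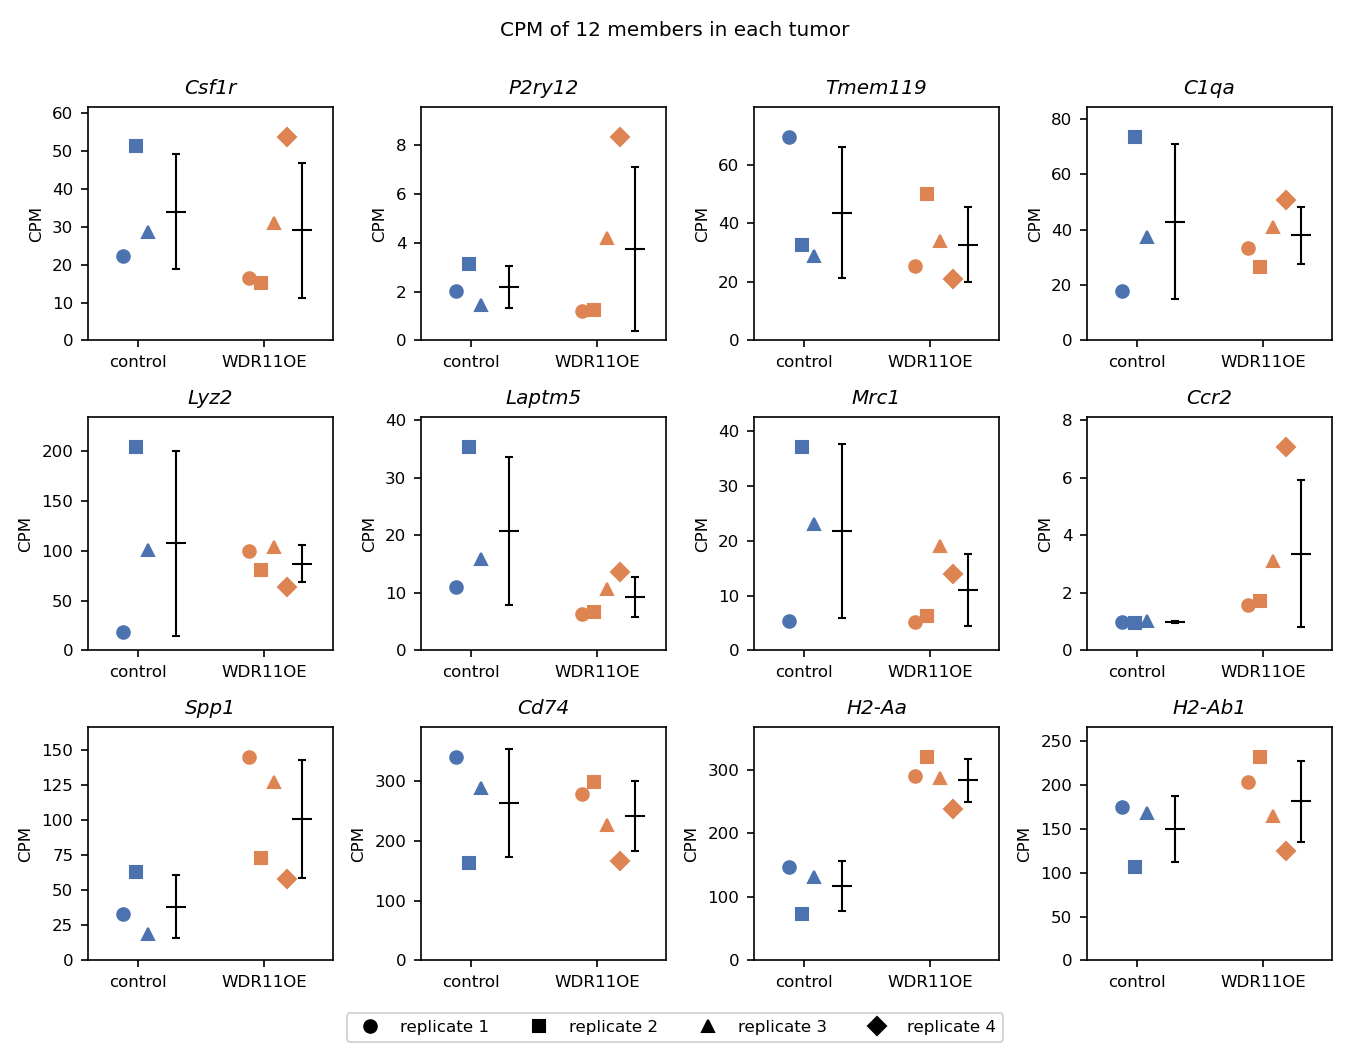
Each panel shows the CPM of 1 gene, with 1 point per tumor and a marker shape per replicate number, and beside them the mean with 1 SD. The WDR11OE points lie above all control points for H2-Aa and Ccr2, and the groups overlap in the other 10 panels.

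The 4 MHC class II genes had the highest levels per length of all 40, and 1 of them, H2-Aa, was higher in WDR11OE tumors. As the mean of both group means, Cd74 was at 180 CPM per kb of exon, H2-Eb1 at 137, H2-Aa at 101 and H2-Ab1 at 101, ahead of Lyz2 at 74.2 and Ctsz at 45.02. At the other end were Cd163 at 0.111, Ccr2 at 0.340 and Siglech at 0.421 CPM per kb. The order of tumors was also different. All 4 class II genes were highest among the controls in replicate 1, and none was highest there in replicate 2, where most other members were. Their summed level was 829, 438 and 741 CPM in control replicates 1 to 3 and 985, 1074, 849 and 669 CPM in WDR11OE replicates 1 to 4, while that of the C1q chains was 43.0, 183 and 96.4 CPM and 74.8, 65.0, 99.6 and 120 CPM.

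H2-Aa encodes the alpha chain of the class II molecule I-A and lies at chr17:34406276-34424772 on the minus strand of NCBIM37. It was at 147, 72.3 and 131 CPM in the controls and at 290, 319, 287 and 238 CPM in WDR11OE tumors. Every WDR11OE tumor was above every control, and the means were 117 ± 39.6 (SD, n = 3) and 284 ± 33.8 (SD, n = 4) CPM. The log2 fold change was 1.28 ± 0.24 (SE), with a 95% interval from 0.71 to 1.85, a 2.42-fold higher level (edgeR adjusted p = 0.00683). The two-sided exact permutation test over the 35 splits of the tumors gave p = 0.0286, the smallest it can give. H2-Aa was called in all 18 alternative fits, with log2 fold changes between 1.02 and 1.51.

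The other class II genes of the list were not called, and the difference between them and H2-Aa is given here as a description. H2-Ab1, the beta chain that pairs with H2-Aa, was at 174, 107 and 168 CPM in the controls and at 204, 231, 165 and 125 CPM in WDR11OE tumors, with overlapping groups (log2 fold change 0.27, 95% interval -0.31 to 0.86, edgeR adjusted p = 0.444). H2-Eb1, the beta chain of I-E, had a log2 fold change of 0.43 (95% interval -0.12 to 0.99, edgeR adjusted p = 0.206). Cd74, the invariant chain, was at 340, 164 and 288 CPM in the controls and at 278, 298, 227 and 167 CPM in WDR11OE tumors (log2 fold change -0.12, edgeR adjusted p = 0.779). The ratio of H2-Aa to H2-Ab1 CPM was 0.847, 0.678 and 0.781 in the controls and 1.43, 1.38, 1.74 and 1.90 in WDR11OE tumors. For H2-Aa to Cd74 it was 0.434, 0.442 and 0.456 in the controls and 1.04, 1.07, 1.26 and 1.43 in WDR11OE tumors. H2-Eb1 to H2-Ab1 was 0.959, 0.893 and 0.907 in the controls and 1.05, 0.978, 1.03 and 1.11 in WDR11OE tumors. All 3 ratios kept the groups apart, and they were singled out after their values were seen. H2-Aa and H2-Ab1 share 17 exon bases on opposite strands. Class II genes are also polymorphic between mouse strains, the hosts were outbred, and the reads were mapped to 1 reference genome. The part of host genotype and mapping in the class II levels and ratios was not tested.

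The promoters of H2-Aa and H2-Eb1 are shown because the genes share the tumor order but differ in their call. They are from RefSeq on GRCm38.p6, chr17:34287774-34288073 on the minus strand and chr17:34305617-34305916 on the plus strand. Capitals mark CTGATTGG, the Y box of class II promoters, a motif chosen with the values of these genes known, which lay at position -51 in H2-Aa and -62 in H2-Eb1. This motif was in 4 of the 31 listed genes with a promoter (12.9%), the others being Irf8 and Spp1, and in 4.70% of all genes.
H2-Aa: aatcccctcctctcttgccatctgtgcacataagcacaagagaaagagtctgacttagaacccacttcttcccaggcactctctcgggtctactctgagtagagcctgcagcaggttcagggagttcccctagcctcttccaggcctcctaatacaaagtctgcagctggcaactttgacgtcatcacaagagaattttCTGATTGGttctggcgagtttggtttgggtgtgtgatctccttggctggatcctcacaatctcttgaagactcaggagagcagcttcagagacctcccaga
H2-Eb1: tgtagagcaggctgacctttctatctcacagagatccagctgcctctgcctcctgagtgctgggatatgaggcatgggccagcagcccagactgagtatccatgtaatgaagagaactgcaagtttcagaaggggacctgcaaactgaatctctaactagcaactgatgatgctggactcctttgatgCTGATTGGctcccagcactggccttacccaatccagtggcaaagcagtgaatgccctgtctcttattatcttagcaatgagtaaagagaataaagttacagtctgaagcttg

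Another 5 genes of class II were added after the values of H2-Aa had been seen. Ciita, the master regulator of class II transcription, was at 126, 147 and 151 CPM in the controls and at 141, 147, 121 and 105 CPM in WDR11OE tumors (log2 fold change -0.14, edgeR adjusted p = 0.473). The entry named Ciita had no match in the annotation used here, so the gene model behind its counts was not checked. H2-Eb2, a second beta chain gene of I-E type, was at 13.4, 3.36 and 5.64 CPM in the controls and at 24.3, 28.0, 23.2 and 14.9 CPM in WDR11OE tumors. The groups of H2-Eb2 did not overlap, and it was the one of the 5 called by edgeR on all tumors (log2 fold change 1.60 ± 0.47 (SE), edgeR adjusted p = 0.0362). That call was lost on leaving out control replicate 2 or 3 or WDR11OE replicate 1, 2 or 3, with adjusted p between 0.0739 and 0.118. It was also lost in edgeR with the GC trend removed (adjusted p = 0.0731) and with WDR11OE replicates 1 and 2 summed (0.0859). H2-DMb1, H2-DMb2 and H2-DMa, subunits of the peptide-loading molecule H2-DM, had log2 fold changes of 0.65, 1.25 and 0.34 (edgeR adjusted p = 0.0766, 0.102 and 0.276). The groups of H2-DMb1 did not overlap either, with 121 CPM in both the highest control and the lowest WDR11OE tumor after rounding. H2-DMb1 was called by DESeq2 (adjusted p = 0.0416) and without control replicate 1 (0.0432), and H2-DMb2 by limma voom (0.0481), by DESeq2 (0.0276) and without control replicate 1 (0.0189).

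B cells and dendritic cells also express class II. Over 5 B cell genes the summed level was 6.48, 1.86 and 5.03 CPM in the controls and 5.54, 4.23, 4.53 and 3.26 CPM in WDR11OE tumors, and over 6 dendritic cell genes it lay between 4.20 and 6.44 CPM and between 3.20 and 4.33 CPM. None of the 3 B cell and 3 dendritic cell genes with enough reads for the test was called, and the part of these cells in the class II levels was not tested. The T cell genes Cd3d, Cd3e and Cd3g had at most 4 counts in any tumor, and the neutrophil gene Ly6g had 0 counts in all 7, which allows up to 0.0924 CPM in the shallowest tumor. Other genes of both lists had reads. Over 8 T cell genes the sum was 1.03 to 1.41 CPM in the controls and 1.24 to 1.68 CPM in WDR11OE tumors. Over 11 neutrophil genes it was 2.82 to 15.0 CPM and 4.47 to 7.67 CPM. Of these, 2 T cell and 4 neutrophil genes entered the test, and none was called.

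**Figure D4:**
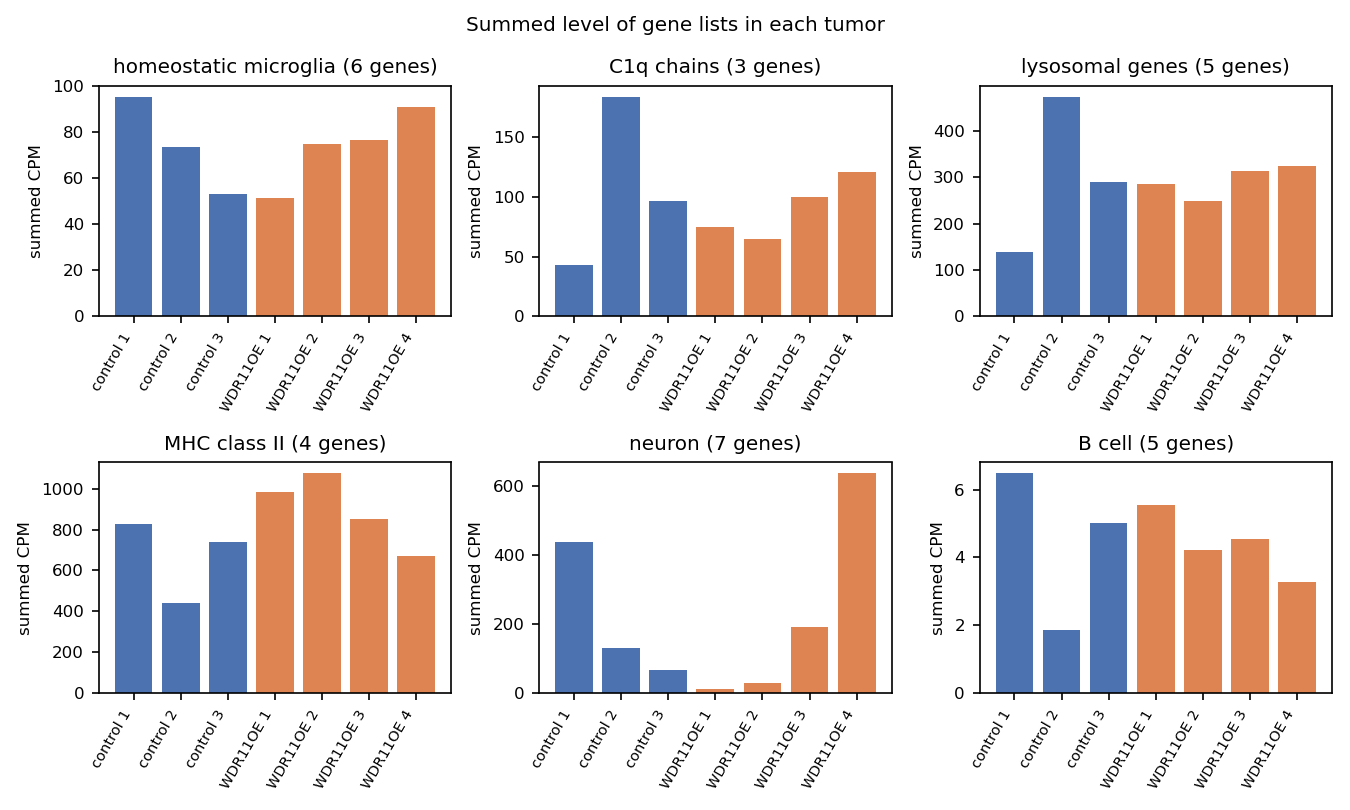
Bars give the summed CPM of 6 gene lists in each tumor, controls in blue and WDR11OE tumors in orange, each panel with its own axis from 0. The class II sum is lowest in control replicate 2, where the C1q and lysosomal sums are highest, and the neuron sum runs from 12.3 CPM in WDR11OE replicate 1 to 636 CPM in replicate 4.

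Ccr2, the receptor for CCL2 that marks recruited monocytes and is low in microglia, was the second gene called. It was at 0.973, 0.954 and 1.01 CPM in the controls and at 1.56, 1.72, 3.11 and 7.05 CPM in WDR11OE replicates 1 to 4. The controls were nearly equal, every WDR11OE tumor lay above them, and replicate 4 was 4.51-fold above replicate 1. The log2 fold change was 1.78 ± 0.57 (SE), with a 95% interval from 0.45 to 3.12 (edgeR adjusted p = 0.0473), and exact permutation, two-sided, gave p = 0.0857. Ccr2 was called in 8 of 18 alternative fits. The call was lost with limma voom, the study's own test (adjusted p = 0.136), and in edgeR with the GC trend removed (0.105). It was also lost in edgeR with library size scaling (0.0537) and with no filter on low counts (0.0592). Leaving out control replicate 1, 2 or 3 or WDR11OE replicate 3 gave adjusted p of 0.114, 0.130, 0.120 and 0.0838, and without WDR11OE replicate 4 the log2 fold change was 1.12 and still called.

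The other macrophage receptors went without a call. Mrc1, the mannose receptor of perivascular macrophages, was at 5.39, 37.1 and 23.1 CPM in the controls and at 5.14, 6.26, 19.0 and 14.0 CPM in WDR11OE tumors (log2 fold change -0.98, 95% interval -2.57 to 0.61, edgeR adjusted p = 0.314). Cd163, a hemoglobin scavenger receptor, stayed at or under 1.22 CPM in every tumor. The chemokines Ccl3 and Ccl4, which attract leukocytes, were also low. Ccl3 was at 1.31, 0.811 and 1.13 CPM in the controls and at 0.971, 0.811, 0.585 and 0.811 CPM in WDR11OE tumors (log2 fold change -0.44, edgeR adjusted p = 0.270). Ccl4 was at 0.611, 0.715 and 1.13 CPM in the controls and at 1.21, 0.973, 0.462 and 1.13 CPM in WDR11OE tumors (log2 fold change 0.21, edgeR adjusted p = 0.721).

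Spp1, which encodes the secreted phosphoprotein osteopontin, made by activated macrophages and by other cells, came close to a call. It was at 32.8, 63.0 and 18.9 CPM in the controls and at 145, 73.2, 128 and 57.9 CPM in WDR11OE tumors. Only WDR11OE replicate 4 fell below the highest control. The log2 fold change was 1.40 ± 0.48 (SE), with a 95% interval from 0.27 to 2.52 (edgeR adjusted p = 0.0600). It was called by limma voom (adjusted p = 0.0489) and DESeq2 (adjusted p = 0.00614), and in edgeR without control replicate 2 (adjusted p = 0.0310) or without WDR11OE replicate 4 (adjusted p = 0.0332). Gpnmb, a glycoprotein of lipid-laden macrophages, was at 4.78, 55.3 and 14.9 CPM in the controls and at 33.6, 26.3, 15.7 and 8.08 CPM in WDR11OE tumors (log2 fold change -0.26, edgeR adjusted p = 0.834).

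The level of each gene was also set against the mean log2 CPM of the 40 genes in the same tumor, as a description. On that scale 5 genes did not overlap between the groups. Gpr34 and Ccr2 lay higher in all WDR11OE tumors, with differences of 0.99 and 1.27 between the group means, and Laptm5, Cd14 and Lgmn lay lower, with differences of -1.26, -0.79 and -0.22. Set against the median of the 40 genes instead, 7 genes did not overlap. Gpr34 again lay higher and Laptm5 lower, whereas Ccr2, Cd14 and Lgmn overlapped and Cd53, Aif1, Tyrobp, Fcer1g and Ctss lay higher. H2-Aa overlapped on both scales. Against the mean, its control replicate 1 was at 4.15, and its WDR11OE tumors ran from 3.72 to 4.86. The share of all genes without overlap was not computed on these scales, so these counts do not set the named genes apart from other genes.

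Beyond the list, 53 other genes of the myeloid pathways were read from the same fit, and 52 entered the test. Of these, 1 was higher (1.92%, against 18.1% of all genes tested) and 6 were lower (11.5%, against 15.8%), with a median log2 fold change of -0.23. The lower genes included the ligands Csf1 and Tgfb1, the transcription factors Maf and Cebpa, and the complement receptor C5ar1. Of the 10 listed transcription factors 3 were lower and none was higher.

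Csf1, a ligand of CSF1R, was at 14.1, 22.4 and 25.9 CPM in the controls and at 8.05, 9.07, 11.6 and 12.2 CPM in WDR11OE tumors. The groups did not overlap, and the log2 fold change was -1.03 ± 0.24 (SE) (edgeR adjusted p = 0.0154). Il34, the other ligand, was at 1.33, 1.74 and 1.26 CPM in the controls and at 0.687, 0.736, 1.91 and 5.56 CPM in WDR11OE tumors (log2 fold change 0.63, edgeR adjusted p = 0.567). Tgfb1, a cytokine on which the identity of microglia depends, was at 9.50, 29.7 and 29.1 CPM in the controls and at 8.17, 7.46, 9.09 and 6.16 CPM in WDR11OE tumors (log2 fold change -1.56 ± 0.38 (SE), edgeR adjusted p = 0.0171). Both calls were lost without control replicate 2 (adjusted p 0.0562 for Csf1 and 0.0665 for Tgfb1) and without control replicate 3 (0.0558 and 0.0625), and that of Tgfb1 also with the GC trend removed (0.0748).

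Maf, a transcription factor of macrophages and of other tissues, was at 39.99, 37.0 and 26.1 CPM in the controls and at 14.8, 17.7, 15.2 and 17.9 CPM in WDR11OE tumors. The fitted log2 fold change was -1.06 ± 0.16 (SE) (edgeR adjusted p = 0.00287). The groups of Maf did not overlap, and it was called in all 18 alternative fits. PU.1, listed in the file by its older symbol Sfpi1, was at 1.42, 6.49 and 3.43 CPM in the controls and at 1.49, 1.42, 2.16 and 3.46 CPM in WDR11OE tumors (log2 fold change -0.82, 95% interval -2.07 to 0.43, edgeR adjusted p = 0.284). Csf1, Tgfb1 and Maf are also made by cells other than macrophages. The summed level of 5 fibroblast genes was between 3213 and 3987 CPM in the controls and between 1235 and 1612 CPM in WDR11OE tumors. Col3a1 made up most of that sum and was the one called lower (log2 fold change -1.42, edgeR adjusted p = 0.000917), while Dcn and Lum had log2 fold changes of 1.05 and 0.46. Over 7 endothelial genes the sum was between 116 and 149 CPM in the controls and between 93.7 and 103 CPM in WDR11OE tumors. Of the 7, Cdh5 and Flt1 were called lower (log2 fold change -1.02 and -0.74, edgeR adjusted p = 0.00238 and 0.00151). That is 28.6%, against 15.8% of all genes tested. The other 5 were not called, and 3 of the 7 had log2 fold changes above 0, up to 0.19. The part of these cells in the levels of Csf1, Tgfb1 and Maf was not tested. A list of 6 skeletal muscle genes, at 1.38 to 1.97 summed CPM in the controls and 34.4 to 106 in WDR11OE tumors, also followed the condition.

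C5ar1, the receptor for the complement peptide C5a, was at 1.39, 11.8 and 4.23 CPM in the controls and at 1.04, 1.01, 2.13 and 0.832 CPM in WDR11OE tumors, with overlapping groups (log2 fold change -2.22 ± 0.68 (SE), edgeR adjusted p = 0.0416). That call rested on control replicate 2, without which the log2 fold change was -1.18 (adjusted p = 0.180), and it was also lost without control replicate 3 or WDR11OE replicate 1, 2 or 4, with limma voom (adjusted p = 0.0848), with the GC trend removed (0.0558) and with WDR11OE replicates 1 and 2 summed (0.0964). Cebpa, a myeloid transcription factor that also acts in fat and liver, had a log2 fold change of -0.98 (edgeR adjusted p = 0.0223), lost without control replicate 2 or WDR11OE replicate 1 or 3 (adjusted p 0.0634, 0.0683 and 0.0535) and with WDR11OE replicates 1 and 2 summed (0.0539). With the GC trend removed the log2 fold change of Cebpa was -0.54 (adjusted p = 0.182). Blnk, an adaptor of Syk signalling, and Olfml3, a secreted protein of microglia and other cells, had log2 fold changes of -0.77 and -0.42 and were not called (edgeR adjusted p = 0.0760 and 0.0743).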

How the data were processed

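RNA from 7 tumors was sequenced, 3 controls and 4 WDR11OE. The authors mapped the reads against NCBIM37 (mm9) with StrongArm, used HT-seq and GENCODE gene models for counting, and deposited the raw counts of each gene. The submitters' processing notes also name CASAVA 1.7, STAR and BWA. The methods describe stranded total RNA, the labels a TruSeq RNA kit, and the strand setting of the counting is not given in the sources used here.

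Counts were filtered with filterByExpr, TMM-scaled and compared by the quasi-likelihood test (two-sided) of edgeR 4.0.16 in R 4.3.3, with condition as the only term and Benjamini-Hochberg adjustment over 17389 genes. Without the filter, 26417 genes were tested. Exact permutation tests compared mean log2 CPM (prior count 2) over 35 splits. Levels per kb used exon lengths of the annotation, which held 33606 of the 34592 genes (97.1%). Total counts of 32116095 to 87141305 put 3 counts at 0.0329 to 0.0924 CPM, and this floor covers counting error only. Alternatives were limma 3.58.1 voom (the study's own test), DESeq2 1.42.0, other scalings and filters, removal of a GC trend by loess, an adjusted p under 0.01, each tumor left out, and WDR11OE replicates 1 and 2 summed. The fit that left out control replicate 1 and WDR11OE replicate 4 together was chosen after seeing the data. The scripts were tested on simulated data with 200 changed genes among 17187, all changed by the same size, up or down. Of these, 58.5% were recovered, and 4.88% of the calls were false, so changed genes can be missed. In the tumors 33.9% of all genes were called, a larger share than was changed in the simulation, so these rates do not carry over to the list.

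The members and lists were chosen with earlier results of these data known. Values are given for the gene with the smallest p and the one with the highest level per length in each role group, the called genes, Csf1r, Tmem119, P2ry12 and Ptprc, and the 2 pathway genes with the smallest p per group. Gpr34, Siglech, Cd163, H2-Ab1, H2-Eb1, Gpnmb, Il34, Sfpi1, Cebpa and the added class II genes are not covered by this rule and were added once their values had been seen. No source says that the tumors of a group came from separate cultures, so p-values measure the spread between these samples, which may be technical in part. Some of the genes in these lists are not reported here by name.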

Additional observations from a re-analysis of the deposited data

How the results depend on the processing

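H2-Aa and Maf kept their direction and their call in all 18 alternatives, and Ccr2 its direction in all 18 and its call in 8. The number of listed genes called higher was 1 with library size scaling, with no filter, with the GC trend removed, at an adjusted p under 0.01 and without control replicate 1 and WDR11OE replicate 4 together, and 1 to 3 with 1 tumor left out. The number called lower was 1 with DESeq2, 3 without control replicate 1 and WDR11OE replicate 4 together, and 0 to 3 with 1 tumor left out. For pathway genes outside the list, 0 were higher with no filter, at an adjusted p under 0.01 and with WDR11OE replicates 1 and 2 summed, and 0 to 1 with 1 tumor left out. The lower ones numbered 3 with the GC trend removed, 2 at an adjusted p under 0.01, 13 without control replicate 1 and WDR11OE replicate 4 together, and 3 to 8 with 1 tumor left out. Over all genes, 3150 were higher, and 2093 with no filter, 1291 with the GC trend removed, 1549 at an adjusted p under 0.01, 1629 with replicates 1 and 2 summed and 1560 to 2986 with 1 tumor left out. Lower genes numbered 2744, and 1791 with the GC trend removed, 1552 at an adjusted p under 0.01 and 2011 to 2868 with 1 tumor left out. With DESeq2 they numbered 3361, and without control replicate 1 and WDR11OE replicate 4 together 3098. The cause was not tested.

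Directions that turned belonged to listed genes with no call. With the GC trend removed, Cd53 was at -0.40, C1qa at 0.14 and Cd74 at 0.12 on the log2 scale. With voom, Mpeg1 was at 0.15, Lyz2 at 0.26 and Gpnmb at 0.069. Fcgr1 was at -0.0091 with DESeq2, -0.011 with DESeq2 size factors and -0.018 with no filter, and Cx3cr1 was at 0.056 with replicates 1 and 2 summed. With 1 tumor left out, log2 fold changes crossed 0 for P2ry12 (-0.00096 to 1.11), Tmem119 (-0.74 to 0.085), Cx3cr1 (-0.59 to 0.30), Siglech (-0.36 to 1.61), Csf1r (-0.71 to 0.20), Irf8 (-0.18 to 0.36), Itgam (-0.096 to 0.81), Cd53 (-0.13 to 0.77), Mpeg1 (-0.53 to 0.61), Trem2 (-0.010 to 0.60), Tyrobp (-0.14 to 0.89), Fcgr3 (-0.75 to 0.48), Fcgr1 (-0.32 to 0.25), C1qa (-0.55 to 0.45), C1qb (-0.74 to 0.25), C1qc (-0.67 to 0.36), Ctsz (-0.053 to 0.36), Lyz2 (-0.81 to 0.55), Lgmn (-0.29 to 0.22), Cd74 (-0.37 to 0.099), Cd163 (-0.86 to 0.87), Gpnmb (-0.75 to 1.08). No paired analysis was possible because the labels give the control and WDR11OE tumors no shared replicate numbers. Depth put 3 counts at 0.0924 CPM or less, and each listed gene had at least 5 counts in every tumor.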
